A study of Danio rerio with 12 samples.

Results

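The livers of adult female zebrafish exposed to bisphenol AF (BPAF) were compared with those of solvent controls, gene by gene. The genes described are the 8193 of 32520 listed genes that reached 1 TPM (transcripts scaled to gene length and to the same library total) in at least 3 of the 6 female libraries. The exposed group comprised 3 libraries of wild-type TU females, 4 months old, kept with 10 µg/L BPAF for 28 days. The control group comprised 3 libraries of females of the same strain and age kept with 0.0001% dimethyl sulfoxide (DMSO) for the same time. For the BPAF water the labels state no DMSO content, so that BPAF and any difference in solvent cannot be told apart. Libraries of males treated in the same way, 3 a group, entered the model and served for a test of the difference between the sexes. The labels do not say whether a library was 1 fish or a pool, and p-values therefore measure only the spread between these libraries, which may be technical.

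BPAF is a fluorinated analogue of bisphenol A, and both compounds can bind estrogen receptors. In egg-laying fish, estradiol from the ovary acts through the estrogen receptor of the liver to switch on the vitellogenin genes, whose products travel in the blood to the oocytes as yolk precursors. The female liver also makes plasma proteins, cholesterol and lipoproteins, breaks down amino acids and inactivates foreign compounds. Many of these genes follow the daily clock.

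The 6 libraries were alike in their main composition and unlike in the markers of neighbouring tissues. Spearman correlations across genes lay between 0.744 and 0.836 for the 6 pairs within a group and between 0.744 and 0.862 for the 9 pairs across groups. All 18 hepatocyte markers were among the 8193 genes, with summed levels of 81526 to 108869 TPM in exposed fish and 87635 to 102510 TPM in controls. Of 23 ovary and oocyte markers, 12 were members, and the whole list summed to 355, 139 and 32.7 TPM in DMSO 1, 2 and 3 and 456, 6.85 and 37.0 TPM in BPAF 1, 2 and 3. Of 17 intestine markers, 7 were members, and the sum over all 17 was highest in DMSO 2 (1128 TPM) and BPAF 1 (853 TPM). The 15 macrophage markers, 12 of them members, summed to 605 TPM in BPAF 1 and to between 120 and 215 TPM in the other libraries. The 27 exocrine pancreas markers, 20 of them members, had their lowest sums in DMSO 1 (295 TPM) and BPAF 1 (377 TPM). Testis, lymphocyte and skeletal muscle lists had 1 member each. BPAF 1 and DMSO 1 were thus highest in ovary markers and lowest in exocrine pancreas markers. The intestine and macrophage lists did not pair them, with DMSO 1 lowest of all in both (348 and 120 TPM). In bulk liver, fewer cells of a type and less RNA per cell cannot be told apart.

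No gene passed the test between exposed and control females. Expression was compared as log2(TPM + 1) with limma, with Benjamini-Hochberg adjustment over the 11389 genes tested, and 0 of the 8193 members (0%) had an adjusted p under 0.05. The lowest adjusted p was 0.869. At an unadjusted p under 0.05 there were 125 members (1.53%), 49 higher and 76 lower in exposed fish, beside 157 of the 11389 genes (1.38%). The 3 exposed and the 3 control values did not overlap in 178 members that were higher (2.17%) and in 178 that were lower (2.17%), beside 2.35% and 2.12% of all genes tested. Whatever their size, 47.2% of the members had a difference above 0 and 52.8% one below 0. Differences of at least 1 on the log2 scale were found in 189 members, 81 higher and 108 lower. The median difference of all members was −0.01, their quartiles were −0.18 and 0.14, and the median standard error was 0.33. Every standard error given with a log2 difference comes from this model and pools the spread within all 4 groups, males included.

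The size of the differences varied with the level of the gene. Of the 147 members with a mean of 1000 TPM or more, 0 differed by 1 or more on the log2 scale, and their median standard error was 0.21. Of the 1393 members between 10 and 100 TPM, 81 (5.82%) differed by that much, with a median standard error of 0.36. Among the 2572 members under 2 TPM the number was 14, where adding 1 TPM to each value shrinks the differences. At the edge of the filter, 859 members reached 1 TPM in exactly 3 libraries, with a median level of 1.12 TPM, and 1039 genes reached it in exactly 2 and were left out, with a median of 0.858 TPM. Only 15 members reached 1 TPM in all 3 exposed libraries and in no control library, and 20 did the reverse, none of them with a mean above 2.22 TPM. These genes became members through 1 group alone. Their groups cannot overlap, and they are among the members without overlap counted above. The plot of difference against level shows this spread, with the most abundant genes close to 0.

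**Figure D1:**
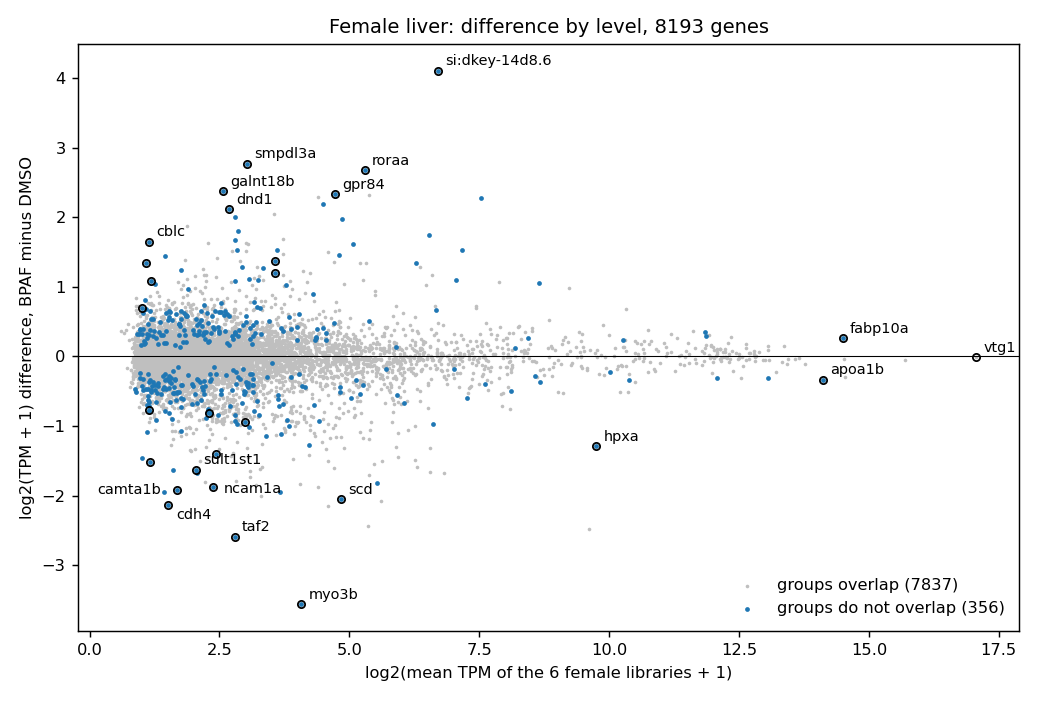
Difference in log2(TPM + 1) between exposed and control females (vertical axis) against log2 of the mean TPM + 1 over the 6 female libraries (horizontal axis) for 8193 genes. Blue points mark the 356 genes whose groups did not overlap, circles mark genes named in the text, and the 147 genes at 1000 TPM or more all lie within 1 of the zero line.

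The vitellogenin genes took a share of liver TPM whose group means differed by less than the spread among exposed fish. The share was 23.2%, 22.9% and 22.5% in DMSO 1, 2 and 3 and 19.5%, 25.7% and 22.4% in BPAF 1, 2 and 3. The group means were 22.8% ± 0.337 and 22.5% ± 3.10 (SD, n = 3 each), a difference of −0.327 percentage points (2-sided exact permutation p = 0.7, where 20 splits allow no p below 0.1). Exposed fish thus varied more among themselves than the groups differed, and without BPAF 1 the difference was 1.21 points. The most abundant yolk precursor gene, vtg1, stood at 142420, 124920 and 146340 TPM in controls and at 122510, 149210 and 140290 TPM in exposed fish, a log2 difference of −0.0073 ± 0.52 (SE). This SE also holds the spread of the male libraries, which ranged from 5.92 to 48.6 TPM, and does not describe the female libraries alone. For vtg2 the values were 53856, 53738 and 53988 TPM in controls and 43604, 59972 and 54042 TPM in exposed fish, where BPAF 1 was lowest and BPAF 2 highest. Reads of near-identical vitellogenin copies can be shared, so the values of single copies are uncertain.

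The other estrogen-responsive genes had small differences. The estrogen receptor gene esr1 was at 21.2, 26.6 and 27.1 TPM in controls and at 28.4, 30.6 and 23.02 TPM in exposed fish (0.13 ± 0.23 on the log2 scale, SE, adjusted p = 1). The groups overlapped, as they did for vtg3, a phosvitin-less vitellogenin, at 1049, 1618 and 1305 TPM in controls and 1269.8, 2134 and 1284 TPM in exposed fish. Of the female-dominant genes, fam20cl, which encodes a secretory pathway kinase-like protein, was at 185, 176 and 153 and 181, 230.2 and 176 TPM in the respective groups. The nothepsin gene nots, which encodes an aspartic protease of the female liver, was at 1567, 2019 and 840.3 TPM in controls and 859, 1372 and 1326 TPM in exposed fish, and the cytochrome P450 gene cyp2k6 differed by 0.21 ± 0.24 (SE). The nots difference was −0.26 ± 0.36 (SE). In the estrogen response list, which does not hold nots, 5 of the 9 members were higher and 4 lower. They lay between −0.10 and 0.22, with a median of 0.03 beside −0.01 for all members.

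Among genes whose groups did not overlap, the 10 with the smallest p and a descriptive symbol in each direction are given here, none of which passed the test. Higher in exposed livers was smpdl3a, which encodes an acid sphingomyelinase-like phosphodiesterase. It stood at 0.59, 0.81 and 1.16 TPM in DMSO 1, 2 and 3 and at 22.04, 13.5 and 4.85 TPM in BPAF 1, 2 and 3, a log2 difference of 2.77 ± 0.61 (SE, limma adjusted p = 1). Every exposed library was above every control, by the smallest margin in BPAF 3. The nuclear receptor gene roraa was at 6.39, 7.52 and 11.98 TPM in controls and at 99.4, 26.04 and 77.8 TPM in exposed fish (2.68). For galnt18b, of the family that starts O-linked glycans on proteins, controls were at 0, 0 and 3.18 TPM and exposed fish at 3.38, 16.4 and 6.61 TPM, with 2 control libraries listed at 0. The gene dnd1, which encodes an RNA-binding protein of germ cells, was at 1.21, 4.31 and 0.04 TPM in controls and at 9.73, 8.56 and 8.7 TPM in exposed fish. The summed ovary markers were 355, 139 and 32.7 TPM in controls and 456, 6.85 and 37.0 TPM in exposed fish. The part of ovary tissue in the dnd1 values was not tested.

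The remaining higher genes were at lower levels or differed less. The ubiquitin ligase gene rnf25 was at 5.66, 5.23 and 4.56 TPM in controls and 26.4, 7.49 and 15.9 TPM in exposed fish. The cilium regulator foxj1a was at 10.3, 6.1 and 3.04 TPM in controls and 14.1, 10.99 and 20.6 TPM in exposed fish, so that the lowest exposed value lay just above the highest control. Under 4 TPM in every female library were the zinc finger gene znf1096 (1.34 ± 0.28, SE), the endoplasmic reticulum membrane complex gene EMC4 (1.08 ± 0.33), the Cbl-family ubiquitin ligase gene cblc (1.65 ± 0.55) and creb1a (0.698 ± 0.23), which encodes a transcription factor that answers to cyclic AMP. These genes reached 1 TPM in all exposed libraries and in no control library. They became members through the exposed group alone, so their missing overlap follows from the filter and is no result. For cblc, controls were at 0, 0 and 0.11 TPM and exposed fish at 1.08, 2.93 and 3.17 TPM. At these levels a few reads can decide a value, and the read depth of the libraries is unknown.

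Lower in exposed livers was myo3b, the member with the smallest p of all. This gene encodes a class III myosin and stood at 35.4, 26.1 and 26.9 TPM in DMSO 1, 2 and 3 and at 5.25, 1.7 and 0 TPM in BPAF 1, 2 and 3. The log2 difference was −3.56 ± 0.61 (SE, limma adjusted p = 0.869). On the log2 scale the control values lay closer together than the exposed values. In TPM the SD was 5.15 in controls and 2.68 in exposed fish. The hemopexin gene hpxa, which encodes the heme-binding plasma protein, was the most abundant gene named by this rule, at 701, 1406 and 1617 TPM in controls and 591, 487 and 377 TPM in exposed fish (−1.29 ± 0.37, SE). The narrowest gap was between DMSO 1 and BPAF 1. The cell adhesion gene ncam1a was at 7.75, 9.97 and 3.87 TPM in controls and 1.33, 0.4 and 1.89 TPM in exposed fish, and the cytosolic sulfotransferase gene sult1st1 at 1.58, 6.76 and 7.98 TPM and 1.21, 0.85 and 0.49 TPM. For sult1st1, DMSO 1 again lay near the exposed values.

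Low-level genes made up most of the remaining lower group. The calmodulin-binding transcription activator gene camta1b was at 1.4, 8.42 and 2.92 TPM in controls and 0.07, 0.22 and 0.26 TPM in exposed fish. BCR, which encodes a regulator of small GTPases, was at 5.02, 10.6 and 5.02 TPM in controls and 2.19, 1.75 and 1.59 TPM in exposed fish. The RNA demethylase gene alkbh5 (−0.81 ± 0.23, SE), sumf1, which encodes the enzyme that activates sulfatases (−0.94 ± 0.28), the tRNA methyltransferase-like gene trmt1l (−0.77 ± 0.24) and the histone H4 gene hist1h4l (−1.52 ± 0.35) were lower without overlap as well. Histone H4 copies are nearly identical, so reads of hist1h4l may be shared with other copies. The genes camta1b, trmt1l and hist1h4l reached 1 TPM in all control libraries and in no exposed library. Their missing overlap follows from the filter and is no result. The plot of levels per library shows that the exposed and control points are separate in each of these 20 genes and that the gap is often no wider than the spread within a group.

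**Figure D2:**
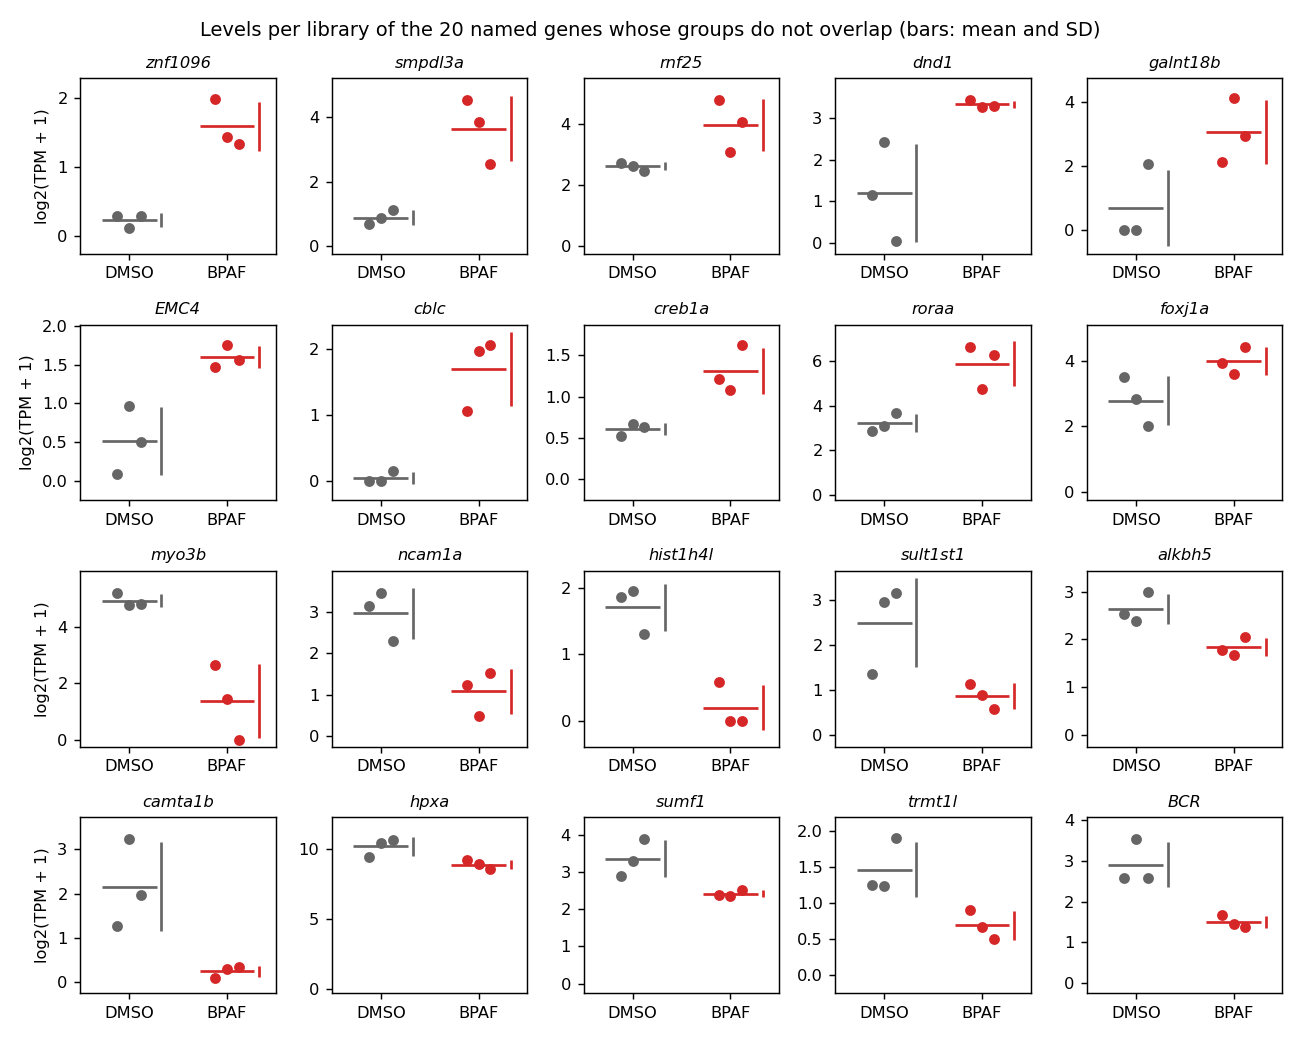
Level of 20 genes in log2(TPM + 1) (vertical axes) in the 3 control (grey) and 3 exposed (red) female libraries, from replicate 1 on the left to 3 on the right, with the group mean and SD as lines. The upper 10 genes were higher and the lower 10 lower in exposed fish, and the widest separation is that of myo3b, at 35.4, 26.1 and 26.9 TPM against 5.25, 1.7 and 0 TPM.

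Some members with wide differences fell outside that rule and were chosen after their values were seen. The member with the widest difference, si:dkey-14d8.6, was at 2.13, 6.53 and 6.11 TPM in controls and at 8.46, 296 and 303 TPM in exposed fish, so that BPAF 2 and BPAF 3 were high and BPAF 1 was near the controls (4.104 ± 1.64, SE, adjusted p = 1). The gene taf2, which encodes a subunit of the general transcription factor TFIID, was at 8.37, 7.19 and 17.4 TPM in controls and 1.03, 0.7 and 0.87 TPM in exposed fish. The cadherin gene cdh4 was at 2.58, 5.05 and 3.26 TPM in controls and 0, 0.08 and 0.02 TPM in exposed fish. For gpr84, a receptor for medium-chain fatty acids on immune cells, DMSO 3 was at 0.31 TPM and the other controls at 16.3 and 15.3 TPM, while exposed fish were at 64.5, 17.4 and 37.7 TPM. Only the control libraries reached 1 TPM for cdh4, so its missing overlap follows from the filter. In all genes of this paragraph the groups did not overlap, and none passed the test. Their standard errors of 0.90 to 1.64 pool the spread of all 4 groups. Male libraries ranged from 0.46 to 24.8 TPM for cdh4 and from 1.74 to 55.9 TPM for taf2. These standard errors are thus not the spread of the female libraries alone.

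The circadian clock genes had the lowest median of all pathway lists, with 16 of 18 members lower and 2 higher in exposed livers. Their median log2 difference was −0.52, where the median of all members was −0.01. None passed the test (lowest adjusted p = 1), 7 had an unadjusted p under 0.05 (1.53% of all members), all of them lower, and 4 of the 18 did not overlap between groups, all lower, where 2.17% of all members did so in that direction. The clock runs on activators of the Clock and Bmal type and on Period and Cryptochrome repressors that feed back on them. Of the repressors, cry2 was at 3.43, 4.77 and 7.31 TPM in controls and 2.19, 2.07 and 2.47 TPM in exposed fish (−0.88 ± 0.29, SE), and per1b at 3.82, 5.12 and 7.25 TPM and 3.09, 1.99 and 2.72 TPM (−0.81 ± 0.299). Both were lower in every exposed library, and DMSO 3 was the highest library of the 6 for each. The light-induced period gene per2 was at 4.73, 3.05 and 8.02 TPM in controls and 2.11, 2.23 and 2.95 TPM in exposed fish.

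Of the output and secondary loop genes of the circadian list named here, all but nfil3 had negative differences. The nuclear receptor gene roraa, given above, is not in that list and was higher in exposed fish (2.68). The transcription factor gene tefa, a clock output gene, was at 15.8, 17.1 and 20.9 TPM in controls and 5.9, 10.2 and 9.75 TPM in exposed fish (−1.003 ± 0.38, SE), without overlap. The nuclear receptor gene nr1d1, a repressor of the Bmal genes, was at 8.33, 9.16 and 11.99 TPM in controls and 8.51, 1.9 and 3.6 TPM in exposed fish, where BPAF 1 was within the range of the controls. The repressor gene bhlhe40 was at 26.5, 43.9 and 106 TPM in controls and 13.3, 25.8 and 28.6 TPM in exposed fish, and ciarta, another repressor gene, differed by −0.76 ± 0.34. The members that were not lower were nfil3, at 0.071 ± 0.33, and per3, at 0.039 ± 0.35. Averaged over the 18 members, the level of each exposed library (−0.44, −0.58 and −0.64 relative to the control mean) was below each control library (−0.21, −0.19 and 0.40). Leaving out any single female library kept between 14 and 18 of the 18 genes below 0, and the median then ranged from −0.76 to −0.34. The weakest median came without DMSO 3.

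All 16 immediate early genes, which answer within minutes to hormones and growth factors, had negative differences. Their median was −0.48, the lowest adjusted p was 1, and 3 had an unadjusted p under 0.05, beside 1.53% of all members. The zinc finger gene egr1 was at 3.46, 12.2 and 14.4 TPM in controls and 4.32, 1.48 and 0.66 TPM in exposed fish (−1.79 ± 0.56, SE). The AP-1 gene junba was at 7.14, 25.9 and 39.4 TPM in controls and 15.4, 1.99 and 3.04 TPM in exposed fish (−1.83 ± 0.64). In both genes DMSO 1 and BPAF 1 lay in the range of the other group, and only dusp1, a phosphatase gene that ends MAP kinase signals, did not overlap, at 19.4, 19.3 and 44.4 TPM against 16.3, 10.8 and 12.4 TPM. The AP-1 gene fosab differed by −0.97 ± 0.46, btg2, an antiproliferative gene, by −0.88 ± 0.55, jun by −0.71 ± 0.52 and the liver transcription factor gene cebpb by −0.48 ± 0.42. The mean level over the 16 genes was lowest in BPAF 3, BPAF 2 and DMSO 1, and highest in DMSO 3 and BPAF 1. Leaving out BPAF 1 moved the median to −0.96, and leaving out BPAF 3 moved it to −0.24. A setting chosen after the data were seen left out DMSO 1 and BPAF 1, the libraries highest in ovary markers, with 2 female libraries a group remaining. There junba passed the test (limma, log2 difference −3.24, adjusted p = 0.0286) as the only gene of all tested. The 2 libraries left out held the junba values within the range of the other group. Leaving them out therefore widens the junba difference by construction, and no conclusion is drawn from this pass.

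All 22 members of the cholesterol list, which holds the enzymes of sterol synthesis and the genes that regulate them, were lower in exposed livers, with a median of −0.40, while trimmed-mean scaling left 20 and quantile normalization 21 of them lower. Of these, 3 did not overlap between groups, beside 2.17% of all members in that direction. An unadjusted p under 0.05 was found for 1 of the 22, close to the 1.53% of all members, and none passed (lowest adjusted p = 1). That 1 gene was insig1, which encodes the sterol sensor that holds back SREBP processing, at 11.2, 19.1 and 50.2 TPM in controls and 9.78, 7.15 and 9.09 TPM in exposed fish (−1.27 ± 0.48, SE). The sterol methyl oxidase gene msmo1 was at 13.8, 20.7 and 16.7 TPM in controls and 7.68, 6.66 and 11.9 TPM in exposed fish (−0.91 ± 0.42). In insig1 and msmo1 every exposed library was below every control.

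For hmgcra, the rate-limiting enzyme of the pathway, controls were at 6.07, 10.97 and 7.74 TPM and exposed fish at 5.68, 2.33 and 11.5 TPM, with BPAF 2 the lowest and BPAF 3 the highest of all (−0.47 ± 0.74, SE). The lanosterol demethylase gene cyp51 was at 7.56, 17.5 and 16.3 TPM in controls and 5.57, 3.23 and 13.2 TPM in exposed fish. The gene of the enzyme before hmgcra, hmgcs1, differed by −0.62 ± 0.55, the last-step reductase gene dhcr7 by −0.43 ± 0.26 and the desaturase gene sc5d by −0.65 ± 0.37. The mean level over the 22 genes was −0.30, −0.90 and −0.16 in BPAF 1, 2 and 3 and −0.20, 0.18 and 0.02 in DMSO 1, 2 and 3, so the groups overlapped. Without BPAF 2 the median moved to −0.21, and across the 6 leave-outs between 17 and 22 of the genes stayed below 0. The related desaturase gene scd, of the fatty acid list, was at 28.9, 62.6 and 37.4 TPM in controls and 15.5, 2.25 and 18.2 TPM in exposed fish (−2.05 ± 0.96, SE), without overlap. Over that list 10 genes were higher and 11 lower, fads2 was the second gene without overlap, at 1064, 1127 and 1159.9 TPM against 871, 955 and 1062 TPM, and fasn, the fatty acid synthase gene, was at 9.71, 22.3 and 10.4 TPM in controls and 20.2, 3.17 and 6.94 TPM in exposed fish. In the same list pgd, which encodes an enzyme that makes NADPH, differed by −0.59 ± 0.36, and dgat1a, of triglyceride synthesis, by 0.34 ± 0.29.

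Genes of amino acid breakdown were lower in 27 of 32 cases, with a median of −0.30. None passed (lowest adjusted p = 1), 3 had an unadjusted p under 0.05, beside 1.53% of all members, and 6 did not overlap between groups, all lower, beside 2.17% of all members. The phenylalanine hydroxylase gene pah was at 107, 126 and 151 TPM in controls and 56.4, 76.3 and 61.2 TPM in exposed fish (−0.97 ± 0.32, SE), with a wide gap between the groups. The kynureninase gene kynu, of tryptophan breakdown, was at 8.53, 34.2 and 15 TPM in controls and 4.56, 1.38 and 6.12 TPM in exposed fish (−1.94 ± 0.63). The methionine cycle gene mat1a, for S-adenosylmethionine synthesis, was at 160.4, 238 and 158 TPM in controls and 123, 106 and 134 TPM in exposed fish. Its neighbours in sulfur amino acid metabolism were also without overlap, bhmt at 1207, 1944 and 1351 TPM against 1115, 1206 and 1162 TPM and cth at 4.85, 8.85 and 7.64 TPM against 4.01, 3.4 and 4.14 TPM. The tyrosine breakdown gene hgd was the sixth, at 194, 225 and 245 TPM against 186, 149 and 167 TPM, and tat, the first enzyme of that route, differed by −0.76 ± 0.403 with BPAF 3 just above DMSO 1. The aminotransferase gene got2a was at 15.01, 18.6 and 24.9 TPM in controls and 16.01, 8.33 and 10.5 TPM in exposed fish. The median stayed between −0.48 and −0.26 when single female libraries were left out, with 23 to 30 of the 32 genes below 0.

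Glucose metabolism had 7 members higher and 16 lower, with a median of −0.12. The gluconeogenic gene pck1 was at 29.3, 23.8 and 50 TPM in controls and 25.5, 0.58 and 9.43 TPM in exposed fish (−2.15 ± 0.88, SE, unadjusted p = 0.0305), a difference carried by BPAF 2 and BPAF 3, and it moved to −1.02 without BPAF 2. The mitochondrial counterpart pck2 was at 60.6, 69.2 and 84.1 TPM in controls and 46.9, 48.8 and 48.4 TPM in exposed fish (−0.55 ± 0.25), with no overlap and little spread among exposed fish. The insulin receptor gene insra differed by −0.33 ± 0.22, also without overlap. Of the subunits of oxidative phosphorylation, 67 of 83 were lower and 16 higher, with a small median of −0.14. Of these, ndufb5 of complex I, at 40.5, 46.5 and 40.2 TPM against 31.2, 27.5 and 37.2 TPM, and cox6c of complex IV, at 393, 469.5 and 389 TPM against 385, 288 and 362 TPM, did not overlap, a share near the 2.17% of all members. The subunit genes uqcrfs1, of complex III, and atp5mc1, of ATP synthase, differed by −0.41 ± 0.27 and −0.47 ± 0.31 with overlap. With trimmed-mean scaling 59 of the 83 were lower. Without DMSO 2 the median of the subunits was 0.011 with 38 of 83 lower, and without BPAF 2 it was −0.027 with 51 of 83 lower, so the shift rested on these libraries.

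Genes of protein folding in the endoplasmic reticulum, which serves the secretion of plasma proteins and yolk precursors, were higher in 29 of 32 cases. The median was 0.16, none passed (lowest adjusted p = 1), and 0 had an unadjusted p under 0.05. With single female libraries left out, between 18 and 31 of the 32 genes were higher, and 18 were without DMSO 1 or without BPAF 1. The median then ranged from 0.070 without DMSO 1 to 0.39 without DMSO 2. The gene derl1, for a channel protein of degradation from the reticulum, was the only member without overlap, at 2.96, 5.24 and 3.87 TPM in controls and 7.65, 5.68 and 6.38 TPM in exposed fish (0.61 ± 0.45, SE). The stress sensor kinase gene eif2ak3 was at 1.44, 2.18 and 1.61 TPM in controls and 4.18, 2.12 and 2.4 TPM in exposed fish, and the disulfide isomerase gene pdia3 at 199.9, 288 and 270.3 TPM against 296, 281 and 375 TPM. The chaperone gene hspa5 showed no such order, at 43.4, 111 and 32.02 TPM in controls and 98.9, 26.1 and 71.9 TPM in exposed fish. The co-chaperone gene dnajb9b differed by 0.76 ± 0.64 and p4hb, another disulfide isomerase gene, by 0.39 ± 0.42. The 3 lower members, trib3 (−0.18), chac1 (−0.13) and atf3 (−0.041), are known in mammals as targets of the stress-induced factor ATF4. Without DMSO 1 and BPAF 1, 15 genes were higher and 17 lower, with a median of −0.075. These values are to be read against the median of all genes tested, which was also lower in that setting and is given below.

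**Figure D3:**
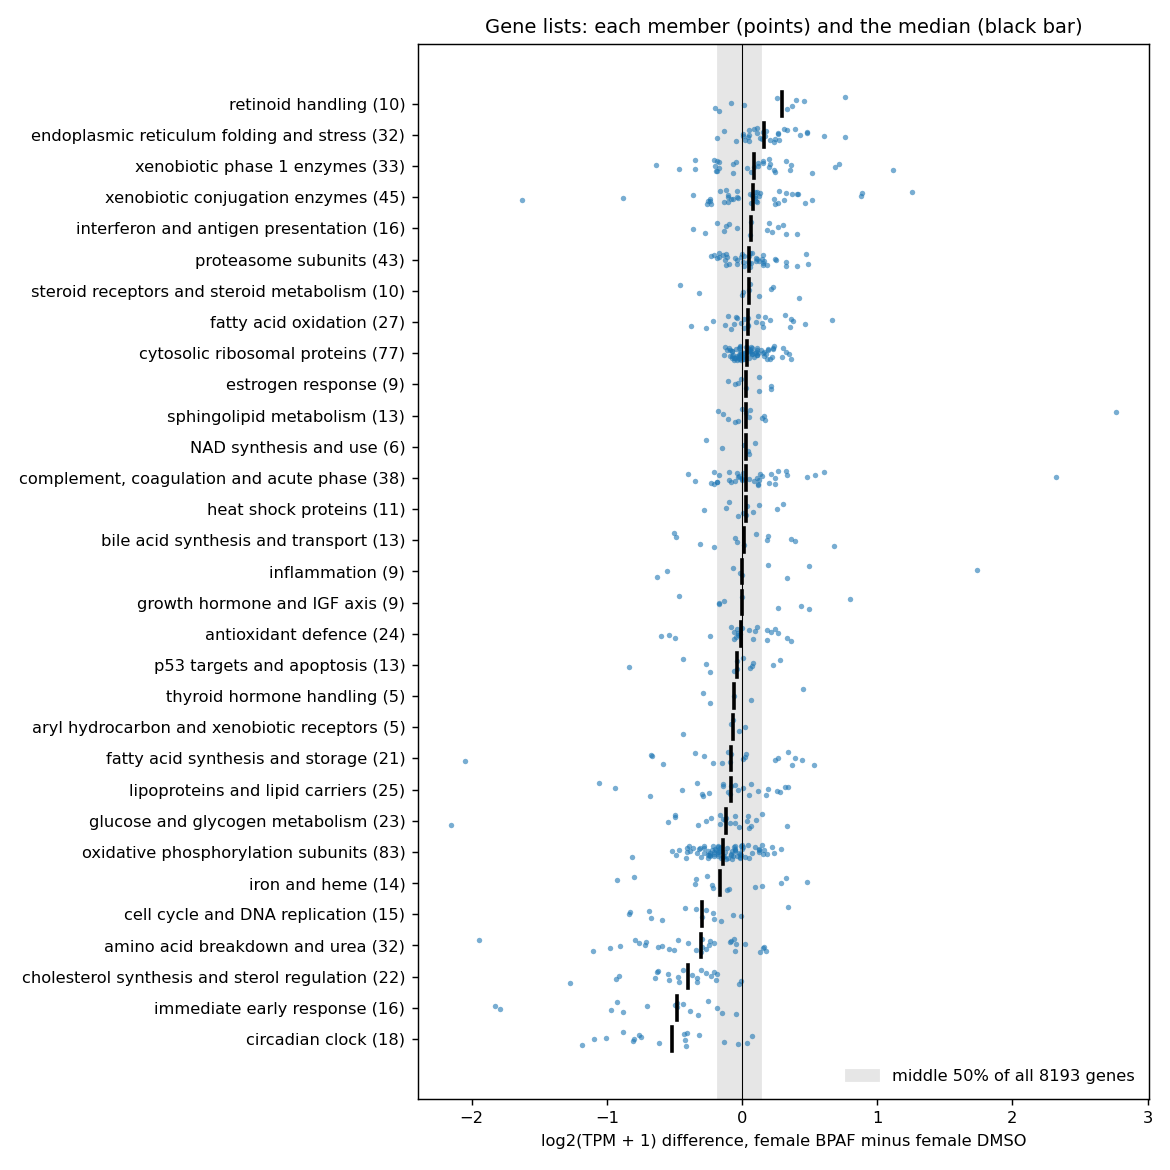
Difference in log2(TPM + 1) between exposed and control females (horizontal axis) for each member (points) of the pathway lists with at least 5 members, with the list median as a black bar, the number of members in brackets and the span between the quartiles of all 8193 genes shaded. The medians of the circadian (−0.52), immediate early (−0.48), cholesterol (−0.40), amino acid breakdown (−0.30) and cell cycle (−0.30) lists lie to the left of the shaded band, and those of the retinoid (0.30) and endoplasmic reticulum folding (0.16) lists lie to its right.

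Foreign compound enzymes had no common direction. Of 33 phase 1 members, 19 were higher and 14 lower (median 0.09), and of 45 conjugation members 26 were higher and 19 lower (median 0.08). The aryl hydrocarbon receptor target cyp1a was at 64.2, 104 and 132 TPM in controls and 69.1, 50.5 and 66.9 TPM in exposed fish (−0.63 ± 0.33, SE), and the groups overlapped because BPAF 1 and BPAF 3 lay just above DMSO 1. The cytochrome P450 gene cyp3a65 was at 23.7, 31.3 and 12.6 TPM in controls and 19.7, 25.3 and 12.5 TPM in exposed fish. Its relative cyp3c1 was at 25.1, 34.4 and 40.99 TPM against 56.5, 44.6 and 41.96 TPM, without overlap by a margin of about 1 TPM, and cyp3c3 differed by 1.12 ± 0.502. The glucuronosyltransferase gene ugt5b2 and the sulfotransferase gene sult3st2 had differences of 1.26 ± 0.82 and 0.89 ± 0.55. Of 24 antioxidant genes 12 were higher and 12 lower. Among them the peroxiredoxin gene prdx2 was at 324, 358 and 288 TPM in controls and 267, 192 and 233 TPM in exposed fish, without overlap. The glutathione reductase gene gsr, of the same list, differed by 0.33. In the list of aryl hydrocarbon and xenobiotic receptors, keap1a, which encodes the sensor of oxidative stress, differed by −0.44 ± 0.31, also without overlap.

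Lipid carriers and plasma proteins had differences in both directions. The gene fabp10a, for the fatty acid binding protein of hepatocytes, was at 19715, 21089 and 21998 TPM in controls and 29240, 24022 and 22387 TPM in exposed fish (0.26 ± 0.32, SE), higher without overlap. The apolipoprotein gene apoa1b was lower without overlap, at 19776, 20328 and 18781 TPM against 18095, 12944 and 16038 TPM (−0.34 ± 0.200). For apoa2 the groups overlapped, at 22612, 28933 and 26523 TPM against 27114, 15828 and 21978 TPM, and apom, another apolipoprotein gene, differed by 0.32 ± 0.21. Of 38 complement, coagulation and acute phase genes, 20 were higher and 18 lower, and serpina1l, an alpha-1-antitrypsin-like gene, differed by −0.21 ± 0.17. The serum amyloid gene saa, an acute phase gene, was at 4.51, 3.81 and 28.97 TPM in controls and 71.8, 9.81 and 125 TPM in exposed fish, with BPAF 1 and BPAF 3 high. The ceruloplasmin gene cp was at 1409, 1389 and 1718 TPM in controls and 2135, 1711 and 2024 TPM in exposed fish (0.38 ± 0.18), and the hepcidin gene hamp ranged from 16.5 to 152 TPM over the 6 libraries. In the inflammation list, lect2l, a secreted chemotactic factor gene, was at 26.1, 33.02 and 55.8 TPM against 241, 55.9 and 141 TPM, and the highest control and the lowest exposed value were nearly equal.

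None of the 13 bile acid, 9 growth or 10 retinoid genes had an unadjusted p under 0.05. Over all members that share was 1.53%, so lists of this size may well hold none. Cholesterol 7-alpha-hydroxylase, the first enzyme of bile acid synthesis, is encoded by cyp7a1, which was at 18.3, 12.3 and 15.7 TPM in controls and 12.3, 15.8 and 5.91 TPM in exposed fish (−0.49 ± 1.13, SE). Male libraries, which enter this SE, ranged from 0.84 to 79.9 TPM. The bile acid genes cyp8b1 (0.39 ± 0.29) and amacr (0.36 ± 0.29) were higher without overlap, and the bile salt exporter gene abcb11a differed by 0.68 ± 0.35. Of all members, 2.17% were higher without overlap. The growth hormone receptor gene ghrb was at 6.45, 5.17 and 5.29 TPM in controls and 10.6, 8.25 and 6.5 TPM in exposed fish, without overlap, while igf1, the liver growth factor gene, was at 5.5, 4.91 and 5.45 TPM against 5.07, 6.54 and 4.38 TPM. In the growth list the widest difference was that of cish, which encodes an inhibitor of cytokine signals, at 8.13, 8.7 and 3.17 TPM in controls and 18.6, 8.26 and 9.8 TPM in exposed fish (0.801 ± 0.51). Among retinoid carriers, rbp5 (0.76 ± 0.38), rbp2a (0.46 ± 0.301) and rbp2b (0.397 ± 0.32) were higher on average with overlapping groups. The retinoid list had the highest pathway median, 0.30, which came to 0.069 without BPAF 2 and to −0.0022 without DMSO 1 and BPAF 1. In the latter setting the median of all genes tested was also lower, as given below. Of the 27 genes of fatty acid oxidation, 17 were higher. Among its 4 carnitine palmitoyltransferase genes the differences were 0.36 for cpt1aa, without overlap, 0.66 for cpt1b, −0.034 for cpt1ab and −0.12 for cpt2, and the nuclear receptor gene pparaa differed by −0.38 ± 0.36 (SE).

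Ribosomal protein genes, whose products build the cytosolic ribosome, differed little. Of 77 members 46 were higher and 31 lower, all between −0.13 and 0.36, with a median of 0.04. The members rpl30, at 2909, 3201 and 3608 TPM against 3635, 4407 and 4336 TPM, and rpl27 (0.296 ± 0.17, SE) were higher without overlap, while rps24 (0.33 ± 0.23) overlapped. Proteasome subunits were higher in 27 of 43 cases (median 0.05), and psmd9 (0.49 ± 0.36) and psmd4a (0.47 ± 0.41) were among them. Genes of the cell cycle were lower in 14 of 15 cases (median −0.30), and the kinase gene plk1 was at 6.01, 2.74 and 1.3 TPM in controls and 5.81, 0.21 and 0.75 TPM in exposed fish. These values moved with the ovary markers. The level summed over all 26 cell cycle genes listed was 148, 59.4 and 20.3 TPM in DMSO 1, 2 and 3 and 151, 17.9 and 24.6 TPM in BPAF 1, 2 and 3, and without BPAF 2 the cell cycle median was 0.16. Of the 12 ovary members, 11 were lower and only zp2.5 was higher, and the egg coat gene zp2.1 was at 54.7, 25.97 and 6.5 TPM in controls and 72.7, 1.65 and 4.21 TPM in exposed fish. The oocyte histone gene h1m (−1.05 ± 0.97) and the egg coat gene zp3a.2 (−1.03 ± 0.97) were likewise highest in DMSO 1 and BPAF 1. The part of this tissue in the cell cycle values was not tested.

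**Figure D4:**
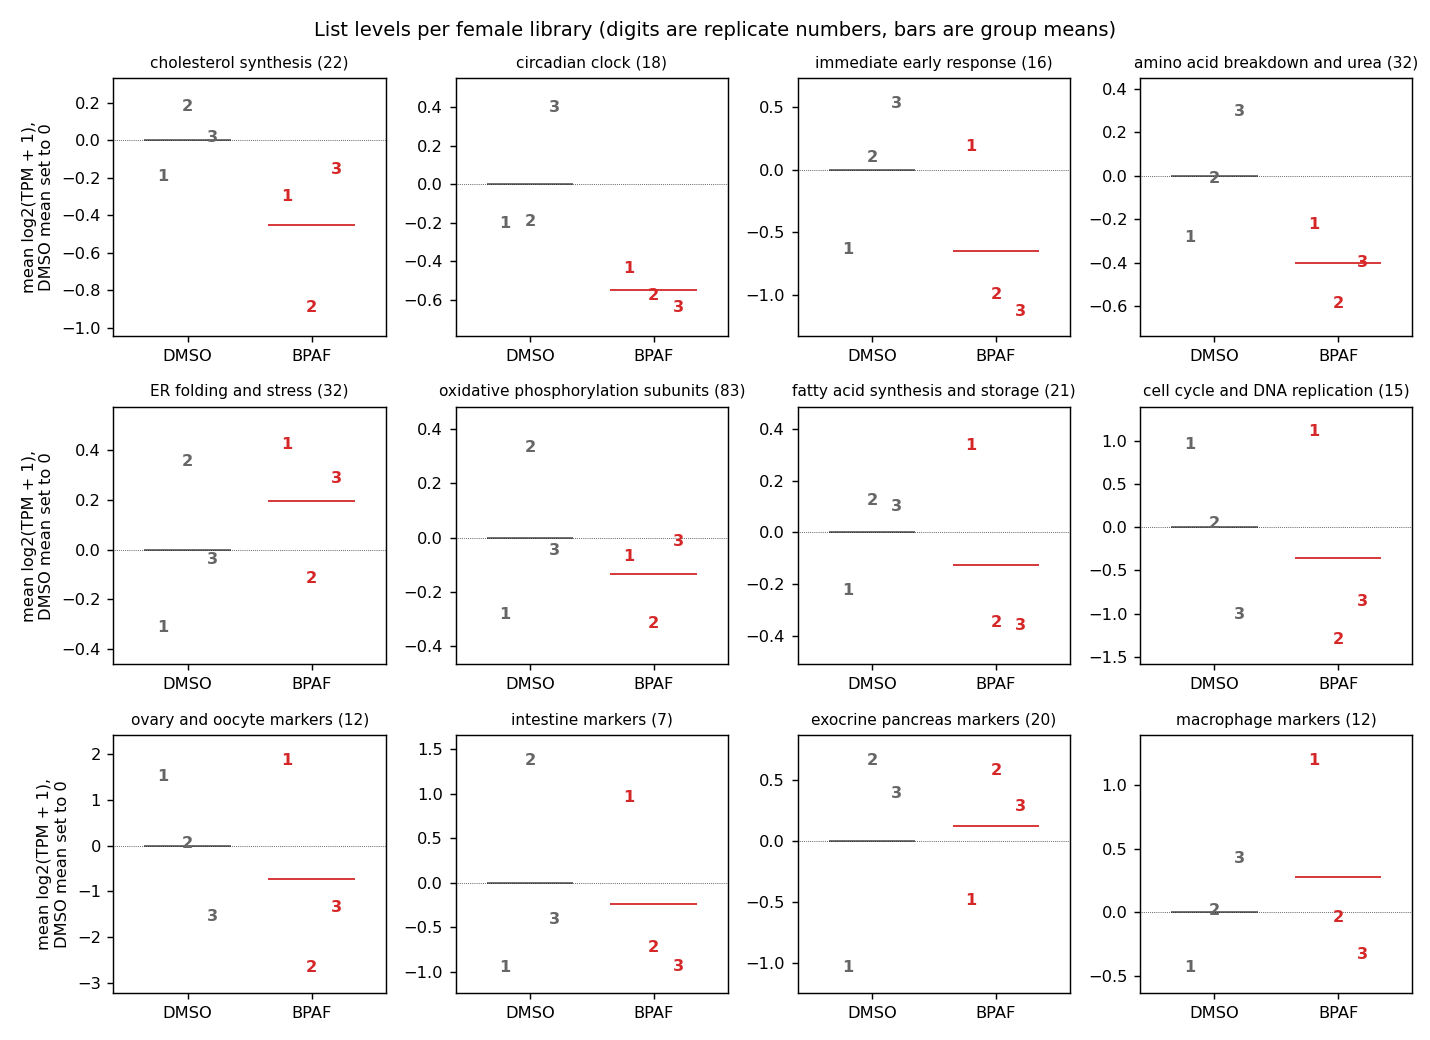
Mean log2(TPM + 1) over the members of 8 pathway and 4 marker lists (vertical axes, control mean set to 0) in each female library, with digits for the replicate number, grey for control and red for exposed fish, and bars for group means. Of the 12 lists only the circadian list has all exposed libraries (−0.44, −0.58 and −0.64) below all controls, and ovary markers are highest in DMSO 1 and BPAF 1.

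The circadian, cholesterol, amino acid and immediate early genes were also examined without the 2 libraries highest in ovary markers. With DMSO 1 and BPAF 1 both left out, the medians were −0.84 for the circadian list, −0.54 for the cholesterol list, −0.50 for amino acid breakdown and −1.28 for the immediate early list. In that setting the median of all genes tested was −0.15, and each median is to be read relative to it. With 2 libraries a group, 17 of 18, 22 of 22, 30 of 32 and 16 of 16 members of these lists were lower. Such counts were not particular to them. Lower in the same setting were 15 of 16 interferon genes (median −0.51), 22 of 25 lipid carrier genes (−0.41) and 77 of 83 oxidative phosphorylation subunits (−0.29). Tissue markers were not evened out by it. Lower were 11 of 12 ovary (−1.33), 7 of 7 intestine (−0.82) and 10 of 12 macrophage members (−0.53). With all libraries these medians were −0.86, −0.23 and 0.12. The exocrine pancreas median went from 0.15 to −0.09. Ribosomal protein genes were higher in 71 of 77 cases and estrogen response genes in 7 of 9. The circadian values could not be tied to a time of day, because the labels state no hour of dissection.

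The response of the females differed from that of the males in no gene that passed the test. In the interaction, 0 of the 8193 members (0%) were called, with a lowest adjusted p of 0.499, and 190 (2.32%) had an unadjusted p under 0.05. Over all 11389 genes tested, 0 were called and 368 had an unadjusted p under 0.05. In males none of these members were called either, but 6 of all 11389 genes tested were. The members had been chosen by their levels in females. Of the members, 80% had positive differences in males, with a median of 0.23. Scaling to a common trimmed mean moved the median interaction of all genes tested from −0.25 to 0.01, so single interactions are to be read against that shift. Side by side, the median of the cholesterol list was −0.40 in females and 0.40 in males, that of amino acid breakdown −0.30 and 0.29, and that of the circadian list −0.52 and 0.04. Within these lists the lowest adjusted p of the interaction was 0.996. The gene smpdl3a differed by −1.26 in males and by 2.77 in females, and roraa by −1.84 and 2.68. Same-signed differences without overlap in either sex were found for galnt18b (1.93 in males), camta1b (−1.28) and ghrb (0.75). Other named genes, such as foxj1a and hpxa, had the same sign in both sexes with overlapping male groups. Over all members, the male groups did not overlap in 726 that were higher and 42 that were lower. How many members were without overlap in both sexes was not counted, so no conclusion is drawn from these genes.

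**Figure D5:**
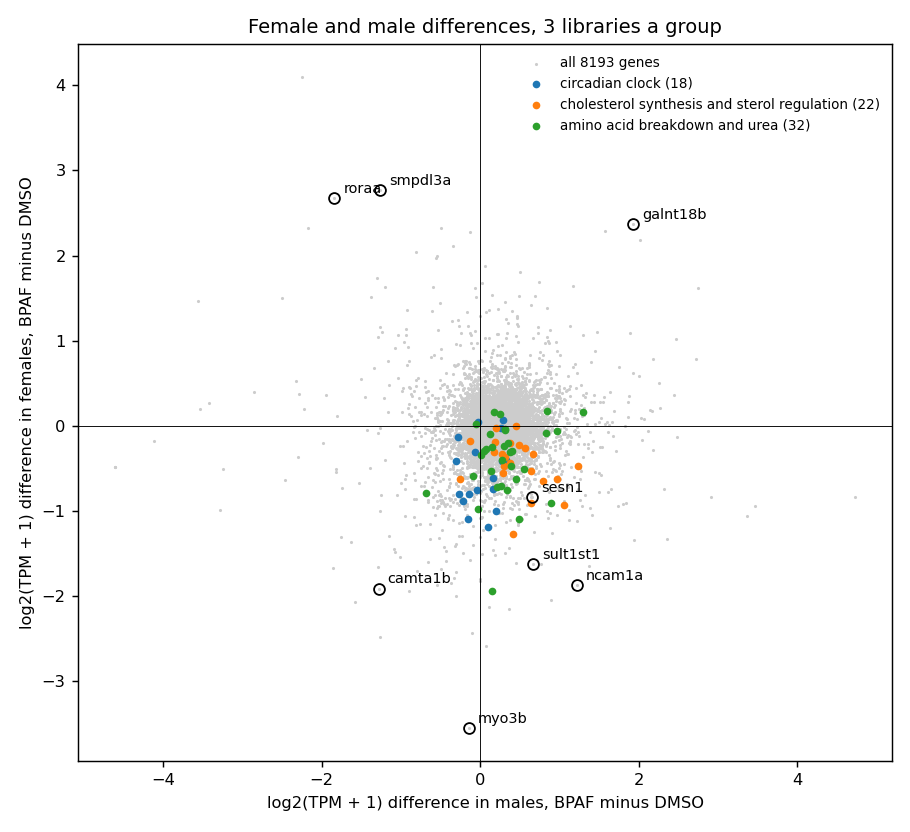
Difference in log2(TPM + 1) between exposed and control fish in females (vertical axis) against that in males (horizontal axis) for 8193 genes, with 3 list colours and 8 named genes. The cloud lies to the right of 0 in males (median 0.23) and around 0 in females (median −0.01), and cholesterol genes (orange) lie below 0 in females.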

How the data were processed

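The deposited table holds 1 value per gene and library for 12 liver libraries, taken as TPM made by the authors. No unit stands in the header, and TPM was read from the values, which have decimals and add up to between 978504.61 and 992375.41 per library over the listed genes. Per the submitters' processing notes, the tools were HISAT2 2.1.0, Cufflinks and RSEM, with no role or order given. A genome build was not found in the labels. There were 0 unassigned columns, and the 4 columns of group means were not used. TPM keep no depth, so neither counting intervals nor floors were computed.

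The fit was made on log2(TPM + 1) in limma 3.58.1 (R 4.3.3), using a variance trend and a mean per group over all 12 libraries (8 residual degrees of freedom), for the 11389 genes at 1 TPM in at least 3 libraries. P-values were adjusted by Benjamini-Hochberg over these genes, with a threshold of 0.05. Fold changes on this scale understate those of low genes. The method was also run on simulated data, with noise drawn independently for each gene and library. Shifts shared by many genes of a library were not simulated, and nothing about these data is concluded from that run. Vitellogenin shares and numbers of detected genes were compared by 2-sided exact permutation.

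The genes named were, by rule, called genes with a log2 difference of at least 1 or, where fewer than 5 qualified, the 10 with the smallest p whose groups do not overlap, in each direction, then a panel of 20 liver genes and up to 3 members of each of 47 lists. Of the list members, those with a difference above its standard error are named. Others were chosen after their values were seen. Members, lists and rules were chosen with earlier results of these data known. Alternatives changed the pseudocount, filter, scaling, weights, block and libraries. Symbols are those of the table, in which 561 are shared by several identifiers. Sequences and coordinates were not used here. A few listed genes enter the counts and medians but are not reported by name here.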

Additional observations from a re-analysis of the deposited data

Results flagged for a closer look

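In 3 of the genes named, every exposed female lay below every control female and every exposed male above every control male. Of all 8193 members, the male groups did not overlap in 726 that were higher in exposed males and in 42 that were lower. The male median over all members was 0.23. The genes ncam1a and sult1st1 were named because their female groups did not overlap. Over all members, the female groups did not overlap in 178 that were lower in exposed females (2.17%). How many of all members had both traits was not counted. No share over all members can therefore be set beside the 3 genes, and no conclusion is drawn from their number. The difference between the sexes, female minus male, was −3.10 on the log2 scale for ncam1a (limma interaction, adjusted p = 0.499), with −1.88 in females and 1.22 in males. For sult1st1 it was −2.30 (adjusted p = 0.996), with −1.63 in females and 0.67 in males. For sesn1, a stress-induced p53 target, it was −1.49 (adjusted p = 0.996), with −0.84 in females and 0.66 in males. None of the 3 passed the adjusted threshold, and in females sesn1 stood at 4.36, 6.53 and 7.34 TPM in controls and 3.76, 3.75 and 1.61 TPM in exposed fish.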

How the results depend on the processing

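No gene was called between the female groups under 22 of 23 alternative settings, and 3 genes were called without a filter on low values, none of them members. Without DMSO 1 and BPAF 1, an alternative chosen after seeing the data, 1 gene (junba) was called. The lowest adjusted p with 1 library left out was 0.0775, without BPAF 1, and numbers at an unadjusted p under 0.05 ran from 86 to 362 over these settings. The interaction, with 0 calls, gave 1 with a pseudocount of 0.1, 1 with 5 and 12 without a filter, and 0 to 1 with single libraries left out (1 without female BPAF 3). The number of genes at 1 TPM or more was 8000 ± 220 in controls and 7910 ± 1160 in exposed fish (SD, n = 3 each, difference −90, exact permutation p = 0.9), and ranged from −743.5 to 361.5 with 1 library left out. The vitellogenin difference ranged from −1.90 to 1.21 points. With a replicate block the female calls and the interaction calls stayed at 0, and the exact paired p was 1 for detected genes and 0.75 for vitellogenin. Same-numbered libraries had correlated deviations of 0.268, 0.052 and 0.118, and not every library correlated best with its own number, so the numbers were not taken as pairs.

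Of the 143 genes named or considered by the rule, 20 changed sign under at least 1 alternative. Without DMSO 1 and BPAF 1 the log2 differences were c6 −0.096, esr1 −0.013, hspa5 −0.45, igf1 0.045, mfap4 −0.0021, nfil3 −0.16, nots 0.050, psmd10 −0.095, vtg1 0.098 and vtg2 0.080. With array weights hspa5 was −0.23, igf1 0.033, vtg1 0.045 and vtg2 0.015, with trimmed-mean scaling vtg1 was 0.024 and igf1 0.024, with quantile normalization igf1 was 0.021, and with a pseudocount of 5 it was 0.0012. With single libraries left out the ranges were −0.35 to 0.26 (atf3), −0.67 to 0.018 (bida), −0.87 to 0.31 (chac1), −0.54 to 0.085 (cyp3a65), −0.94 to 0.016 (hmgcra), −0.300 to 0.64 (hspa5), −0.14 to 0.11 (igf1), −0.18 to 0.396 (nfil3), −0.62 to 0.016 (nots), −0.26 to 0.33 (per3), −0.96 to 0.052 (socs3b), −0.49 to 0.0051 (trib3), −0.077 to 0.073 (vtg1), −0.15 to 0.080 (vtg2), −0.030 to 0.37 (vtg3) and −0.82 to 2.03 (zp2.5). The cause was not tested. The depth of the libraries is unknown, so no detection limit can be stated for low genes.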

Other observations

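Of the 12 macrophage members 7 were higher and 5 lower, with a median of 0.12. The macrophage gene mfap4 was at 2.32, 2.93 and 5.44 TPM in controls and 27.4, 5.17 and 3.09 TPM in exposed fish, and the lysozyme-like gene lygl1 at 29.9, 44.7 and 57.97 TPM against 181, 51.7 and 124 TPM, both highest in BPAF 1. The cathepsin S gene ctss2.1 of the same list was at 28.9, 11.1 and 5.13 TPM in controls and 26.6, 1.74 and 3.24 TPM in exposed fish (−0.93 ± 0.75, SE), highest in DMSO 1. Of 16 interferon and antigen presentation genes 9 were higher and 7 lower, with a median of 0.06, and the transcription factor gene irf9 differed by −0.37 ± 0.27 (SE). The inhibitors of inflammatory signals nfkbiab (−0.63 ± 0.47) and socs3b (−0.56 ± 0.47) were highest in DMSO 3. In the heme list, cpox, of heme synthesis, was at 2.64, 8.02 and 9.7 TPM in controls and 2.86, 2.16 and 3.18 TPM in exposed fish, with an unadjusted p of 0.0495 and an adjusted p of 1. The hemojuvelin gene hjv, a regulator of hepcidin, differed by −0.35 ± 0.25. The redox regulator gene txnipa was at 9.94, 18.6 and 40.4 TPM in controls and 23.6, 8.23 and 10.2 TPM in exposed fish, again with DMSO 3 the highest library. Of the marker genes of other cell types, the cholangiocyte gene sox9b differed by −0.28 ± 0.23, the lymphocyte receptor gene il7r by 0.71 ± 0.63, pparg, of adipocytes, by −0.33 ± 0.31 and mylz3, a muscle myosin light chain gene, by 0.58 ± 0.33, all with overlapping groups.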
